A study of Mus musculus with 11 samples.

Results

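The Htt gene encodes huntingtin (HTT). Expansion of a glutamine tract in this protein causes Huntington's disease, and HTT was also the target of the precipitation here. The data described are the HTT ChIP-seq peaks around that gene, in mm9 on chromosome 5 from 34100000 to 36260000. This window was defined by position and holds the gene span of about 35104000 to 35255500, with 1004 kb before it and 1004.5 kb after it. The window's peaks, the lists and the measures were chosen with earlier results of these data known. The window contained 1242 of the 1298473 peaks in the 7 deposited lists, and 83369 peaks lay on chromosome 5 as a whole. ChIP-seq recovers DNA that is held with a protein by an antibody, and a peak is a stretch where more fragments were recovered than in the local background. The striata came from male mice aged 4 months on the B6 background, littermates from crosses of B6.HttQ111/+ with B6.Htt+/+ animals. Q111/+ mice (4 libraries) are heterozygous for a knock-in Htt allele whose CAG repeat is expanded, and WT mice (3 libraries) carry no expanded allele. HTT was precipitated with the antibody EPR5526. No peak list of the 4 antibody-free input libraries was analysed here. The labels do not say whether libraries came from separate animals, so p-values measure only how much these samples vary, which may be technical variation.

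HTT is a large, mostly cytoplasmic scaffold protein that also enters the nucleus, where it is known to bind transcriptional regulators. It is expressed throughout the brain, and the medium spiny neurons of the striatum are the cells most vulnerable to its expanded form. The CAG repeat lies in the first exon, so the allele that separates the genotypes sits at the start of the gene studied here. In RefSeq (GRCm38.p6) Htt lies on the plus strand between Grk4, which encodes a G protein-coupled receptor kinase, and Msantd1. Nop14, Mfsd10, Add1 (adducin 1, of the membrane skeleton) and Sh3bp2 follow further before the gene. Rgs12 (a regulator of G protein signalling), Hgfac, Dok7 (needed at the neuromuscular junction) and Lrpap1 follow further after it. RefSeq gives Htt a length of 150814 bp, 99.5% of the 151501 bp span used here. Coordinates were not carried between builds, so peaks are placed by their distance from the Htt start and not assigned to neighbouring genes.

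The promoter is shown because the repeat expansion and the gene's start lie beside it, and the lists differ in whether they hold a peak nearby. The sequence is RefSeq's 250 bases before the start of Htt, at chr5:34761490-34761739 in GRCm38.p6, plus strand. Capitals mark matches to GGGCGG or its reverse complement CCGCCC, the core of a GC box, and to the palindrome TGACGTCA, the cAMP response element, searched on both strands after the sequence had been seen.
Htt promoter: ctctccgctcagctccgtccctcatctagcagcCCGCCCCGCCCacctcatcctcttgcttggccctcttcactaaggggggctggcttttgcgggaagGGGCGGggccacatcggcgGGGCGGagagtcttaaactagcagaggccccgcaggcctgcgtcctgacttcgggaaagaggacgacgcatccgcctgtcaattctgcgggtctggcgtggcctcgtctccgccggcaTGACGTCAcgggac
The stretch holds 4 GC box matches, of which the 2 nearest its 5′ end share 1 base, and 1 TGACGTCA match. Of 32851 RefSeq promoters of the same length, 32.7% held a GC box match and 1.55% a TGACGTCA match. It has 22 CpG dinucleotides and 66.4% GC, against medians of 6 and 52.4% over those promoters. No TATAAA or TTTATA occurred in it, and 12.4% of promoters held 1 of these.

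The lists differ in length, which bears on every count below. The Q111/+ lists held 88920 to 111287 peaks and the WT lists 137373 to 495334, and the depth behind each list is unknown, since a list gives no read total. Each list's name begins with 1 of 2 prefixes, which the sources used here do not explain. Prefix 1 holds Q111/+ replicates 1 and 2 and WT replicate 1, and prefix 2 holds Q111/+ replicates 3 and 4 and WT replicates 2 and 3.

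Peaks on the 2 sides of Htt were divided differently in the 2 genotypes. Before the gene the Q111/+ lists held 68, 44, 19 and 34 peaks (replicates 1 to 4) and after it 60, 38, 7 and 19. The WT lists held 239, 59 and 35 peaks before the gene and 409, 79 and 74 after it. Every Q111/+ list thus had more peaks before Htt than after it, and every WT list had more after it.

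Within each list the density before the gene was divided by the density after it, which cancels the length of the list. Of a list's window peaks, those before the gene made up 49.3% to 70.4% in Q111/+ and 31.2% to 40.7% in WT. On the log2 scale, with 0.5 added to each number of peaks, the density ratio was 0.18, 0.21, 1.38 and 0.82 in the Q111/+ lists. It was -0.77, -0.42 and -1.07 in the WT lists, so the genotypes did not overlap. The mean was 0.65 ± 0.57 (SD, n = 4) in Q111/+ and -0.75 ± 0.33 (SD, n = 3) in WT, a difference of 1.40 or 2.64-fold (two-sided exact permutation test over 35 arrangements, p = 0.0286, the smallest this design allows). Adjusted over the 7 measures tested by the Benjamini-Hochberg method the p is 0.2, so the difference does not pass after adjustment. It was 0.97 within prefix 1 and 1.84 within prefix 2, and their mean of 1.41 had an exact permutation p of 0.0556, the smallest that arrangements within prefixes allow. The difference within prefix 1 rests on WT replicate 1 as its only WT list. The prefix 2 lists of Q111/+ had the higher ratios and also the fewest peaks, 27 and 55 in the whole window.

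**Figure D1:**
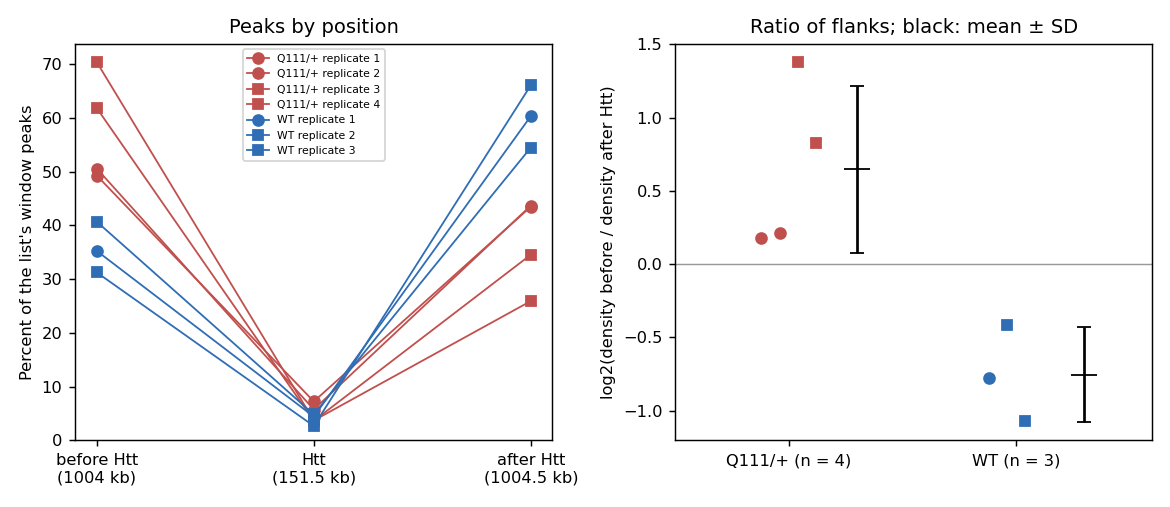
Left, the percent of each list's window peaks that lay before, within and after Htt, 1 line per list (red, Q111/+; blue, WT; circles, prefix 1; squares, prefix 2). Right, the log2 ratio of peak density before to after the gene for each list, with mean and SD in black; the 4 Q111/+ lists lie between 0.18 and 1.38 and the 3 WT lists between -1.07 and -0.42.

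The same ratio was taken over the whole genome for comparison. The genome was divided into 1171 tiles of the window's length, each with flanks of the same size at its ends. The genotypes did not overlap in 66 of them (5.64%; 5.29% of autosomal tiles), and the Q111/+ ratios were above every WT ratio in 31 (2.65%). The median size of the difference between genotypes was 0.20 on the log2 scale. A difference of at least the size seen at Htt occurred in 5 tiles, all 5 on the X chromosome, and in 2 of these (0.171%) the genotypes did not overlap. Among the 1096 autosomal tiles the largest was 1.21. Such ratios vary more where peaks are few, as in most X tiles and in the Htt window of Q111/+ replicates 3 and 4. The tiles were not matched to the window for number of peaks, so its rank among equally sparse tiles is unknown.

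The difference in sides was also present close to the gene, a distance chosen after the values were seen. In the 500 kb before Htt the Q111/+ lists held 35, 23, 8 and 14 peaks, and in the 500 kb after it 32, 18, 3 and 10. The WT lists held 128, 22 and 14 before and 203, 37 and 35 after. The difference in the log2 ratio was then 1.45 (exact permutation p = 0.0286), and among peaks of at least 5 fragments in the full flanks it was 1.64 (exact permutation p = 0.0286). Both are forms of the same measure and no separate evidence.

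In bins of 100 kb the mean WT share was the higher one throughout the stretch after the gene. Each number of peaks was divided by the length of its list, giving a share. In the 9 bins from 200 to 1100 kb after the Htt start, the mean WT share was above the mean Q111/+ share in 9 within prefix 1 and in 9 within prefix 2. Within prefix 1 the WT value is that of WT replicate 1 alone. These bins are adjacent parts of the same flank and no separate evidence. How often other stretches of the genome show the same was not computed. In the 10 bins before the start it was above in 6 within each prefix, and in 5 within both. The 4 Q111/+ lists together held 164 peaks in the bins before the start and 115 in those from 200 kb on, and the 3 WT lists 329 and 514. No bin after the start had every WT share above every Q111/+ share, while 2.67% of all 100 kb tiles of the genome did.

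The bin from 700 to 800 kb after the start held the most peaks of all, 105 over the 7 lists. WT replicates 1, 2 and 3 had 50, 22 and 15 peaks there, and the Q111/+ lists 10, 4, 0 and 4. As shares of the lists the genotypes overlapped, at 0.899 per 10000 in Q111/+ replicate 1 and 0.884 in WT replicate 2. This bin was the fullest of WT replicates 2 and 3, and the fullest of WT replicate 1 was the bin before it, with 52. In the 100 kb just before the gene the shares were higher in Q111/+. The Q111/+ lists had 7, 10, 5 and 7 peaks there and the WT lists 10, 10 and 0. As shares of the lists this was the 1 bin, of the 21 examined, in which every Q111/+ list was above every WT list. Of all 100 kb tiles 1.8% showed this, a rate per tile that does not allow for picking the bin out of 21.

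**Figure D2:**
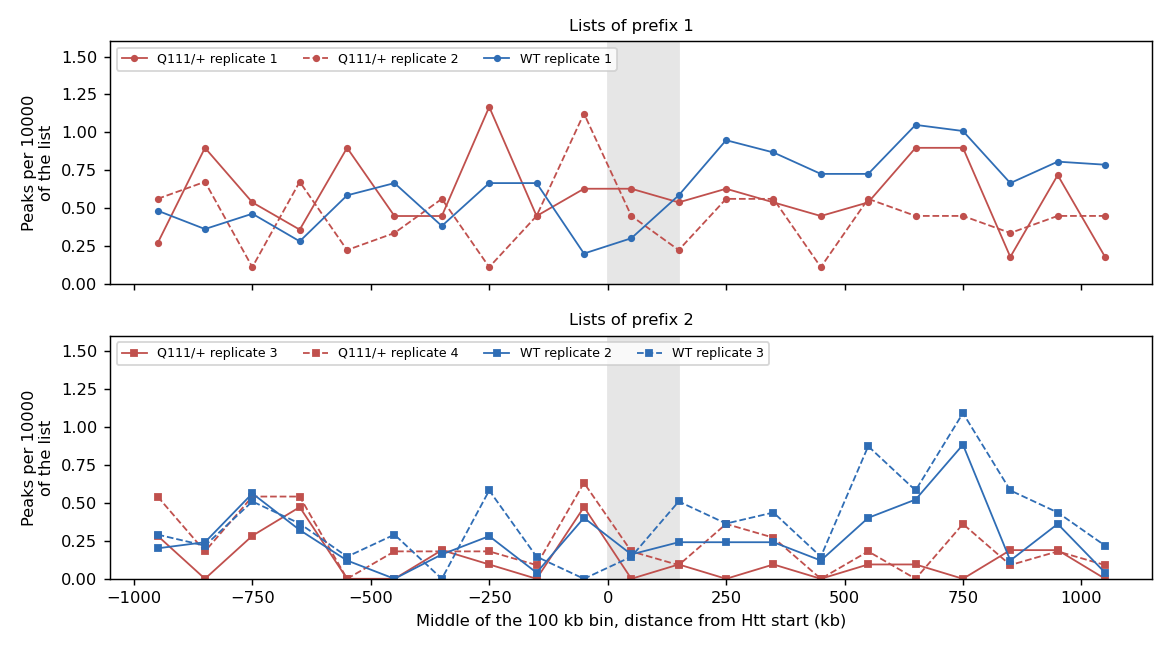
Peaks per 10000 peaks of the list in 100 kb bins, by distance of the bin's middle from the Htt start in kb, with prefix 1 above and prefix 2 below (red, Q111/+; blue, WT; grey, gene span). To the right of the gene the blue lines lie mostly above the red ones, with the highest point of WT replicates 2 and 3 in the bin from 700 to 800 kb; to the left they cross.

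The window as a whole held a large share of some lists and a small share of others, and the share went with the prefix of the list's name. It held 138, 87, 27 and 55 peaks in Q111/+ replicates 1 to 4 and 678, 145 and 112 in WT replicates 1 to 3. Per 10000 peaks of the list these were 12.4, 9.78, 2.55 and 4.97 in Q111/+ and 13.7, 5.82 and 8.15 in WT. Exact 95% binomial intervals, which cover counting error only, ran from 1.68 to 3.71 for the lowest and from 12.7 to 14.8 for the highest. The 3 lists of prefix 1 (9.78 to 13.7) thus all lay above the 4 of prefix 2 (2.55 to 8.15). Of all tiles of the window's length, 25.5% had prefix 2 below prefix 1 in this way, and in 57.6% the prefixes did not overlap in 1 direction or the other.

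No difference in the window's share between genotypes was detected. It was 7.43 ± 4.48 per 10000 (SD, n = 4) in Q111/+ and 9.22 ± 4.04 (SD, n = 3) in WT (exact permutation p = 0.629, adjusted p = 0.88), and the values overlapped, as in all but 3.59% of tiles. Within each prefix, however, every Q111/+ list lay below every WT list, by a mean of 2.60 per 10000 in prefix 1 and of 3.23 in prefix 2. Of all tiles 13.6% showed this, and the exact permutation p within prefixes was 0.111, where 0.0556 is the smallest possible. The number of peaks itself was 3.42-fold higher in WT (log2 difference -1.78, exact permutation p = 0.0857, adjusted p = 0.3). That difference was -0.41 when every list was cut to its strongest 88920 peaks (exact permutation p = 0.629) and -0.97 without WT replicate 1 (exact permutation p = 0.267). The number of peaks overlapped between genotypes, as Q111/+ replicate 1 had more peaks than WT replicate 3.

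Set against the tiles of the same length, the window's rank differed between lists. In Q111/+ replicate 1 and WT replicate 1 its share was above 90.8% and 90.1% of tiles, and in Q111/+ replicate 2 above 64.0%. In the prefix 2 lists it was above 8.28% and 11.7% of tiles in Q111/+ and 16.9% and 47.2% in WT. The median tile held 8.18 to 8.55 peaks per 10000 in every list. Of each list's peaks on chromosome 5, the window held 0.416% in Q111/+ replicate 3, the lowest, and 2.06% in WT replicate 1, the highest.

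**Figure D3:**
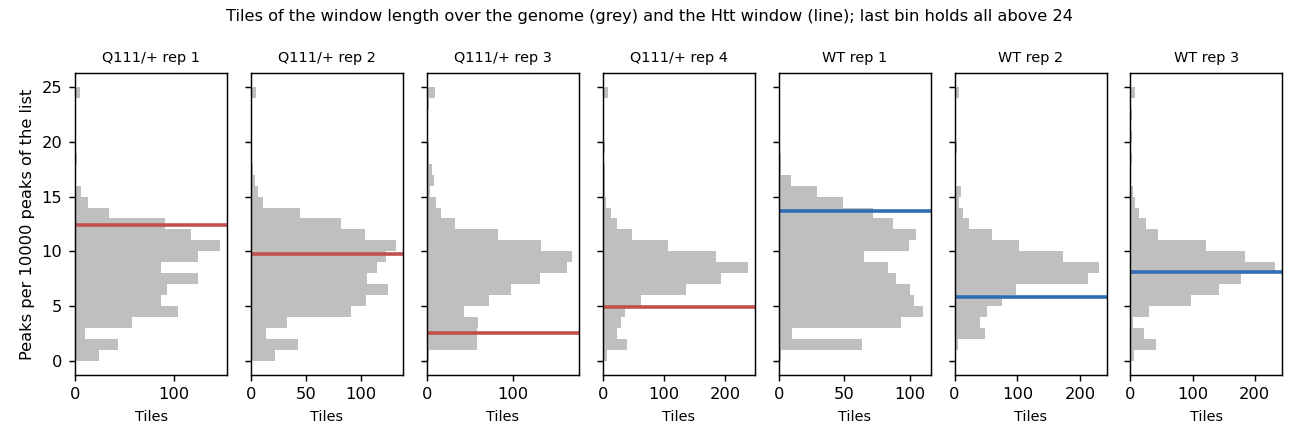
Distribution of peaks per 10000 peaks of the list over tiles of the window's length (grey bars, number of tiles; the top bar holds all higher values) and the value of the Htt window (line; red, Q111/+; blue, WT), 1 panel per list. The line is high in the distribution in Q111/+ and WT replicates 1 and low in Q111/+ replicates 3 and 4.

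**Figure D4:**
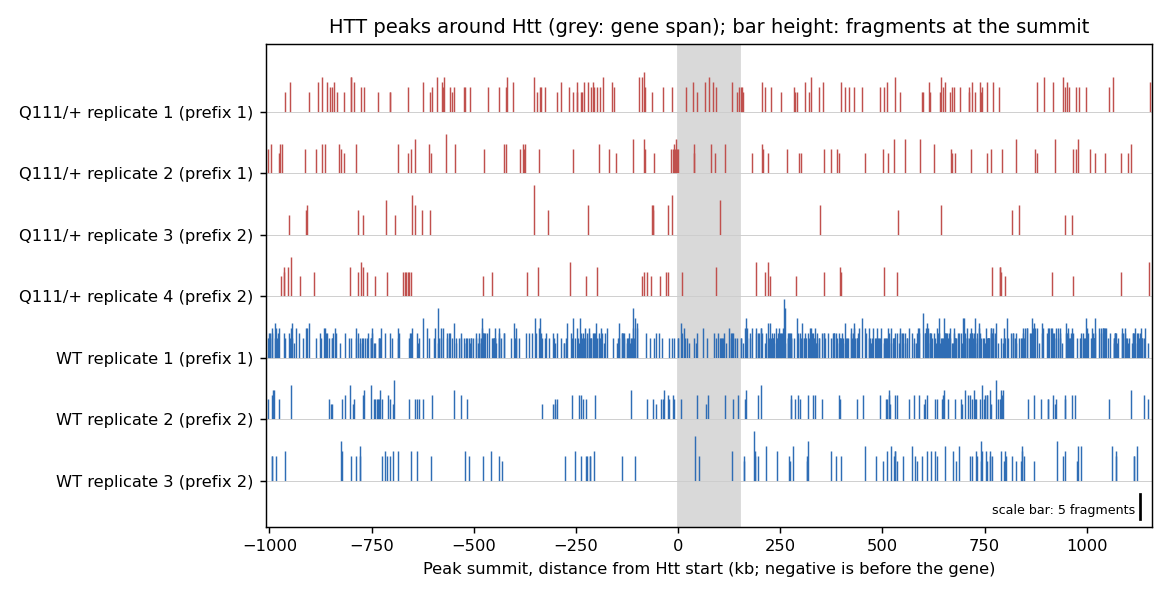
Every peak of the window by distance of its summit from the Htt start in kb, 1 row per list; bar height is the number of fragments at the summit, and grey marks the gene. WT replicate 1 has 678 peaks and Q111/+ replicate 3 has 27.

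Few peaks lay within Htt itself. Q111/+ replicates 1 to 4 had 10, 5, 1 and 2 peaks in the gene and WT replicates 1 to 3 had 30, 7 and 3. Per 10000 peaks of the list this was 0.899, 0.562, 0.0945 and 0.181 in Q111/+ and 0.606, 0.281 and 0.218 in WT, with exact 95% binomial intervals from 0.00239 to 0.526 for the lowest and from 0.431 to 1.65 for the highest. The genotypes overlapped, at 0.434 ± 0.370 (SD, n = 4) in Q111/+ and 0.368 ± 0.208 (SD, n = 3) in WT (exact permutation p = 0.857, adjusted p = 1), where 4.06% of the genome tiles of the gene's length showed no overlap. All 3 lists of prefix 1 were above the 4 of prefix 2, as in 12.3% of those 16935 tiles; in 27.2% the prefixes did not overlap in 1 direction or the other. The median such tile held 0.510 to 0.567 peaks per 10000, so the gene was above it in Q111/+ replicate 1 and WT replicate 1, equal to it in Q111/+ replicate 2 and below it in the lists of prefix 2.

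**Figure D5:**
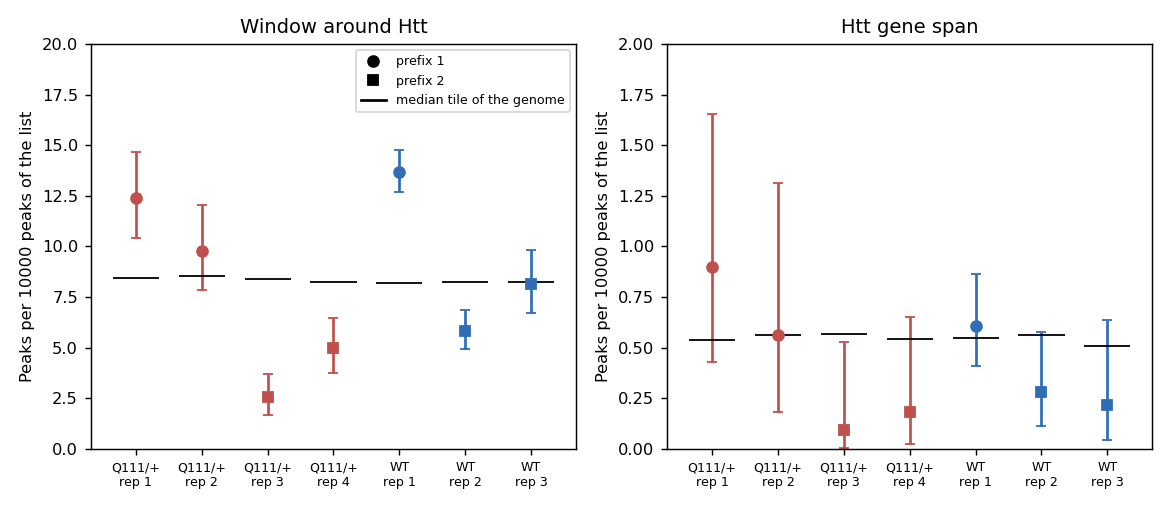
Peaks per 10000 peaks of the list in the whole window (left) and in the Htt gene span (right) for each list, with exact 95% binomial intervals (red, Q111/+; blue, WT; circles, prefix 1; squares, prefix 2) and the median tile of equal length as a black line. The circles, from 9.78 to 13.7 on the left, lie above the squares, from 2.55 to 8.15.

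Relative to the flanks, the gene held fewer peaks per length in 6 of the 7 lists. For the log2 ratio of density in the gene to density in both flanks, 0.5 was again added to each number of peaks. This addition weighs most in lists with few peaks in the gene. The ratio was 0.12, -0.18, -0.41 and -0.69 in Q111/+ and -0.68, -0.48 and -1.24 in WT. The groups overlapped, and the difference of 0.51 was not past the threshold (exact permutation p = 0.143, adjusted p = 0.333).

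The strongest peak in the gene, by the authors' −log10 p, was at a different place in each list. The −log10 p values rest on scaled fragments, as described below. In WT replicate 1 it was at 35110188 to 35110620, 6.19 kb into the gene, with a −log10 p of 20.1 and 7 fragments. WT replicate 2 had a weaker peak of 4 fragments at 35110070 to 35110616, which overlapped it. In WT replicate 3 the strongest was at 35146562 to 35146730, with 9 fragments and a −log10 p of 16.6. In WT replicate 2 it lay at 35176557 to 35176697, with 5 fragments and a −log10 p of 8.14.

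In the Q111/+ lists the strongest peaks of the gene lay between 49.4% and 76.0% of the way along it. They were at 35178787 to 35178948, 35219006 to 35219181, 35206575 to 35206830 and 35197077 to 35197305 in Q111/+ replicates 1 to 4, between 74.8 and 115.0 kb from the start. Their −log10 p was 13.4, 10.5, 6.70 and 8.19, and they held 7, 6, 7 and 6 fragments. The peak of Q111/+ replicate 3 was the only one in the gene in that list. None of these 4 peaks overlapped another, so no site was the strongest in 2 Q111/+ lists. The strongest peaks of WT replicates 1 to 3 lay at 4.16%, 48.0% and 28.1% of the gene. Counting all peaks of the gene, Q111/+ replicates 1 to 4 had 5, 2, 0 and 1 before its middle and 5, 3, 1 and 1 after it. WT replicates 1 to 3 had 12, 4 and 2 before its middle and 18, 3 and 1 after it. A difference in position between genotypes was not tested.

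Close to the start, where the knock-in allele carries its expanded repeat, peaks were called in 2 of 7 lists. Within 5 kb either side of the start Q111/+ replicate 2 had 3 peaks, WT replicate 1 had 2 and the other 5 lists had 0. The mean was 0.75 ± 1.5 peaks (SD, n = 4) in Q111/+ and 0.667 ± 1.15 (SD, n = 3) in WT (exact permutation p = 1). At each list's average density over the window, such a stretch would hold 3.14 peaks in WT replicate 1 and 0.125 to 0.671 in the other lists.

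The peaks at the start formed 4 regions, 3 just before it and 1 just after. The region at 35102730 to 35103076 was called in both lists, with 5 fragments and an authors' fold of 3.04 in Q111/+ replicate 2 and with 4 fragments and a fold of 2.99 in WT replicate 1. Its nearer end lies at -924 bp from the start as given here, which is approximate. In Q111/+ replicate 2 alone, peaks of 7 and 5 fragments lay at 35099633 to 35099856 and 35101448 to 35101701. In WT replicate 1 alone, a peak of 4 fragments lay 926 bp into the gene, at 35104926 to 35105077. In the other lists the nearest peak lay at -15652 and -15819 bp from the start in Q111/+ replicates 1 and 3, before the gene. It lay 9741, 6070 and 42562 bp after the start in Q111/+ replicate 4 and WT replicates 2 and 3.

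Peaks of the window rested on few fragments, as did those of the lists in general. The number at each summit was recovered from the deposited fold and −log10 p, and all 1242 peaks of the window were matched. The median was 5, 5, 6 and 5 fragments in Q111/+ replicates 1 to 4 and 4, 4 and 5 in WT replicates 1 to 3, and the highest single value was 12, in WT replicate 1. Peaks of 7 or more fragments made up 4.83% to 18.5% of the window's peaks and 5.61% to 19.2% of the full lists. The match multiplied each fragment by a scale of 4.38 to 5.27 in the Q111/+ lists and 4.20 to 6.16 in the WT lists. The deposited −log10 p is thus higher than the fragments alone would give, and by a scale that differs between lists. When the fragments were left unscaled, 8, 7, 3 and 1 peaks of the Q111/+ lists and 37, 5 and 9 of the WT lists had a Poisson p of at most 0.001. The full lists held 10293, 7356, 5644 and 5944 such peaks in Q111/+ and 32457, 11665 and 19304 in WT. Per 10000 of these, the window held 7.77, 9.52, 5.32 and 1.68 in Q111/+ and 11.4, 4.29 and 4.66 in WT, so the genotypes overlapped.

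The window's peaks were about as strong as those of their lists. The median of the authors' fold was 3.10, 3.06, 2.78 and 2.85 in Q111/+ and 3.19, 2.99 and 3.08 in WT. In the full lists it was 3.38, 3.37, 2.78 and 2.89 in Q111/+ and 3.19, 2.99 and 3.12 in WT. Group means were 2.95 ± 0.154 (SD, n = 4) and 3.09 ± 0.0975 (SD, n = 3), and the groups overlapped (exact permutation p = 0.257, adjusted p = 0.45). Within prefixes the mean difference in median fold was -0.162 (exact permutation p = 0.0556, the smallest possible, adjusted p = 0.13). Median widths were 176 to 245 bp in the window and 173 to 210 bp in the lists, and the widest peak measured 1059 bp, in WT replicate 1. Peaks covered 0.319% to 1.29% of the window in Q111/+ and 1.03% to 7.99% in WT. The longest stretch without a peak was 23.5 kb in WT replicate 1 and 255 kb in Q111/+ replicate 3.

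Sites in the window seldom recurred between libraries. Merging overlapping peaks left 1096 regions. Of these, 964 came from 1 list, 120 from 2, 11 from 3 and 1 from 4, and none from more. At least 2 lists called 12.0% of the window's regions, against 15.0% of the 1075255 regions of all chromosomes, and at least 3 lists called 1.09%, against 2.86%. In the gene 4 of 54 regions were called in 2 lists and none in 3 or more. Over all chromosomes 1403 regions were called in all 7 lists, 64 of them on chromosome 5.

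The region called most often, in 4 lists, was at 35859554 to 35860003, 756 kb after the Htt start, within the fullest bin of WT replicates 2 and 3. It held 6 and 4 fragments in Q111/+ replicates 1 and 2 and 4 and 5 in WT replicates 1 and 2, with authors' folds of 4.03, 2.82, 3.19 and 3.71. Of the regions called in 3 lists, the one nearest the gene was at 35087983 to 35088348, at -15.8 kb from the start. It held 5 and 8 fragments in Q111/+ replicates 1 and 3 and 4 in WT replicate 1, and the peak of 8 fragments had a −log10 p of 13.4, the highest of Q111/+ replicate 3 in the window.

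Of the other regions called in 3 lists and in both genotypes, the 7 with the highest ranks of −log10 p were spread over both flanks. Before the gene they were at 34332398 to 34332734, 34100158 to 34100737 and 34127473 to 34128005. After it they were at 36069077 to 36069437, 35634178 to 35634380, 36049666 to 36050093 and 35324919 to 35325263. No peak in these 7 held more than 7 fragments. The region of 3 lists called in WT alone is described next.

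One site was called in every WT and no Q111/+ list, at 35822752 to 35823570, 719 kb after the start. It held 5, 4 and 5 fragments with authors' folds of 3.95, 2.99 and 3.12 in WT replicates 1 to 3, and the peaks of WT replicates 2 and 3 overlapped that of replicate 1 but not each other. It was the only one among the 1096 regions, and 0.321% of all regions (3447 of 1075255) were of this kind. No region of the window was called in all 4 Q111/+ and no WT list, and 0.0027% of all regions were. Of the window's regions, 798 (72.8%) were called in WT lists alone, 225 (20.5%) in Q111/+ lists alone and 73 (6.66%) in both genotypes. Over all chromosomes these shares were 64.6%, 26.8% and 8.66%.

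Pairs of lists shared few sites in the window. Q111/+ replicates 1 and 2, of the same genotype and prefix, shared 2 regions, which were 1.45% and 2.30% of those each called there, against 5.63% and 7.05% over all chromosomes. WT replicates 2 and 3, also alike in both, shared 8, or 5.52% and 7.14%, against 7.97% and 14.5%. Q111/+ replicates 2 and 3 shared 0, against 6.03% and 5.05%. The longest list, WT replicate 1, held 26 of the 138 regions of Q111/+ replicate 1 (18.8%) and 34 of the 145 of WT replicate 2 (23.4%), where over all chromosomes it held 20.7% and 18.8%.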

How the data were processed

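HTT ChIP-seq peak lists of 4 Q111/+ and 3 WT striatal libraries were used, 1 list per library. Chromatin was cut by micrococcal nuclease and sonication, per the labels' protocols. The submitters' processing notes list Bowtie2 2.2.5, MACS2 2.1 and the build mm9, without roles or order. The names of the lists show paired reads and a MACS p of 0.001; the sources used here do not say whether inputs were used in calling. The authors' fold column is a ratio to the local background. Each peak's p-value and q-value were deposited as −log10 values. The deposited score, about 10 times the −log10 p, was not analysed, and the deposited summit offset, in bp, placed peaks in the map and in 1 alternative. These values describe peaks inside 1 list only.

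All peaks of chromosomes 1 to 19, X and Y entered, with 1-based positions, and were counted where they overlapped an interval by at least 1 bp. Genotypes were compared by two-sided exact permutation tests of the difference in means over 35 arrangements of 7 lists, for 7 measures, with Benjamini-Hochberg adjustment. A raw p of 0.05 was the threshold. Regions were merged from overlapping peaks. Named were the regions within 5 kb of the start, those of the gene called in at least 3 lists, the strongest peak of each list in the gene, the 10 regions called in most lists, and those called in all lists of 1 genotype alone. Members, lists and measures were chosen with earlier results of these data known. Fragments were recovered by searching (limits: −log10 p 60, fragments 60) for whole numbers that give the deposited fold and −log10 p under MACS's formulas within 0.02, and 99.9% to 100.0% of such peaks in each list matched. On simulated data all fragment numbers were right. Replicate numbers were not used to pair the lists in these tests.

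Alternatives, some chosen after seeing the data (500 kb flanks, peaks of at least 5 fragments, unscaled fragments, shares of chromosome 5), were equal-length lists of 88920 peaks, a −log10 q of at least 2, summits, other spans, each library left out, a replicate block and prefixes as blocks. No mm9 sequence was used, so peak sequences are not shown. Software was matplotlib 3.10.9, scipy 1.17.1, pandas 2.3.3 and numpy 2.4.6 under Python 3.11.15.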

Additional observations from a re-analysis of the deposited data

Results flagged for a closer look

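Among the 4 Q111/+ libraries, 7 measures were examined for a value standing apart, and 1 was found. Q111/+ replicate 2 had 3 peaks within 5 kb of the Htt start, where the other 3 had 0. With 3 values tied at 0, any single library with a peak there would have stood apart in this way.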

How the results depend on the processing

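Of 117 alternative values, 93 kept their direction and their side of the threshold, or for a count stayed within 1.5 times. The log2 difference in density before against after Htt kept its direction in every alternative run. Without each library in turn it was 1.16 to 1.57, with exact permutation p-values of 0.0667 to 0.133, the highest without WT replicate 3; designs of 3 against 3 cannot go below 0.1 and those of 4 against 2 not below 0.0667. Pairing the lists by replicate number, a replicate block, gave 1.34 (exact sign-flip p = 0.25, the smallest possible), and the mean within prefixes was 1.41. Deviations of same-numbered lists correlated at 0.91, -0.87 and -0.00791 over 1171 tiles, so no consistent pairing by number was seen. Same-numbered lists share a prefix for numbers 1 and 3 but not for 2, so these values cannot settle whether numbers pair the lists. Within 2 kb and 10 kb of the start the difference in peak number was -0.417 and -0.5, and within prefixes -0.25, in place of 0.0833; without single libraries it ran from -0.667 to 0.75. The difference in the window's share was 0.437 without WT replicate 1, with a range of -3.49 to 0.437 over libraries left out, and that in the gene's share ran from -0.0893 to 0.184, below 0 without Q111/+ replicate 1 and without WT replicate 3. With a −log10 q of at least 2 the ratio of gene to flank differed by 0.63 (exact permutation p = 0.0286). In equal-length lists the median fold differed by -0.956 (exact permutation p = 0.0286), where the WT lists keep only their stronger peaks by construction, and the count of regions called in all WT and no Q111/+ list was 0 in place of 1. That count was 1 to 27 without single libraries, at 6, 21 and 27 without WT replicates 1, 2 and 3, where 2 WT lists sufficed. Depth is unknown, and with 4 to 6 fragments at a median peak single sites are weakly supported.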
